A study of Mus musculus with 2 samples.

Results

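Potassium channel genes encode the pores, and the proteins attached to them, that let potassium leave or enter a cell. They were taken as every gene whose symbol begins with Kcn followed by a family letter, leaving out pseudogenes and opposite-strand transcripts, with at least 20 UMIs (counts of single captured RNA molecules) over both deposited matrices. Of 95 such symbols among 53700 features, 52 passed. The passing genes were 24 of 40 voltage-gated genes, 7 of 13 auxiliary genes, 9 of 12 calcium- or sodium-activated genes with their subunits, 6 of 15 inward rectifiers, 5 of 14 two-pore genes and the noncoding RNA Kcnq1ot1. Just inside the minimum lay Kcna2 and Kcnh4 with 20 UMIs each and Kcnmb4 with 29. Just outside lay Kcnj13 with 19 UMIs, and Kcna6 and Kcnk6 with 18 each.

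The data were single-nucleus RNA counts from the quadriceps, a thigh muscle, of C57BL/6N mice aged 3 months. One library came from wild type (WT) mice and the other from PTRF knockout mice. PTRF, whose gene is named Cavin1 in the files, coats caveolae, the small pits of the plasma membrane of muscle, fat and endothelial cells, and its loss causes muscular dystrophy with lipodystrophy in people. The labels state neither how many animals entered a library nor how the allele was made or in which cells it is lost. For Cavin1 itself 75 UMIs were counted among WT nuclei, and 2 among knockout nuclei.

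In skeletal muscle, voltage-gated potassium channels end the action potential, inward rectifiers and ATP-sensitive channels hold the resting potential and return potassium to the fibre from the transverse tubules, and calcium-activated channels answer to calcium inside the cell. Two-pore channels carry the steady leak that sets the resting potential of many cell types. Auxiliary subunits bind the pores and alter their gating, and several of these genes also work in vessel wall, fat and immune cells.

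The WT library held 10272 nuclei after filtering, with a median of 703 UMIs, and the knockout library 7762 nuclei with a median of 1562. The repeated ribosomal transcript Rn18s took 8.07% of WT and 2.90% of knockout UMIs, and 24 barcodes occurred in both libraries. Several clusters came almost wholly from one library: clusters 0, 3 and 4 held 2337, 1712 and 1546 WT nuclei against 277, 116 and 207 knockout nuclei, and clusters 2, 7 and 8 held 128, 43 and 154 WT nuclei against 1880, 1018 and 859. All of these were muscle fibre nuclei by their markers. A further cluster of 2083 WT and 28 knockout nuclei was led by long neuronal and repeat-rich transcripts. A rule set after the data were seen left it unnamed and outside the muscle class. Its WT level of Ttn, the gene of the giant muscle protein titin, was 114% of that in the main muscle clusters. Among muscle fibre nuclei, 2048 WT and 2755 knockout nuclei had Y-linked UMIs and none of Xist, while 2 WT and 574 knockout nuclei had Xist and no Y-linked UMIs. With 1 library per genotype there was no test between genotypes. Every interval given is an exact 95% interval that covers counting error only, and genotype, animal, library and depth cannot be told apart.

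Together the 52 genes gave 49310 WT and 72494 knockout UMIs, or 5062 and 4518 CPM, the UMIs of a gene scaled to the summed UMIs of its library or class. Most of this came from few genes. Kcnma1, the pore of the large-conductance calcium-activated (BK) channel, gave 48.1% of the WT and 44.4% of the knockout UMIs of the set. Kcnq5, a voltage-gated channel of the M-current family, gave 16.7% and 24.7%. Kcnq1ot1, the paternally expressed RNA that silences neighbouring genes in cis, gave 8.44% and 11.5%, and Kcnn2, a small-conductance (SK) calcium-activated channel, gave 6.00% and 3.85%. By family, calcium- or sodium-activated genes held 55.4% of WT and 49.9% of knockout UMIs, voltage-gated genes 26.1% and 33.0%, auxiliary genes 6.39% and 1.88%, inward rectifiers 3.04% and 2.82%, and two-pore genes 0.629% and 0.883%.

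Long genes give more UMIs in nuclei, where unspliced RNA is abundant, so levels of different genes were also compared per kilobase of gene span. The sources do not state whether introns were counted. Exons cover 17.0 kb of Kcnma1 and 5.44 kb of Kcnj2, and an order per kilobase of exon is not given. Per kilobase of gene span, over all nuclei, the order in WT was Kcnq1ot1 at 4.59 CPM per kb, Kcnj2 at 4.07, Kcnma1 at 3.36 and Kcnc1 at 2.67. Kcnj2 encodes the inward rectifier Kir2.1 and Kcnc1 the fast delayed rectifier Kv3.1. In the knockout library Kcnj2 led at 5.72 CPM per kb, followed by Kcnq1ot1 at 5.57, Kcnma1 at 2.76 and Kcnc1 at 2.27. Kcnq5, second by UMIs, lay at 1.50 and 1.98 CPM per kb, and Kcnn2 at 0.728 and 0.417. Kcnma1 spans 725 kb on chromosome 14 (chr14:23289431-24014491, minus strand, GRCm38) and Kcnq5 spans 564 kb on chromosome 1 (chr1:21398403-21961942, minus strand), whereas Kcnj2 spans 10.7 kb (chr11:111066164-111076821, plus strand).

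**Figure D1:**
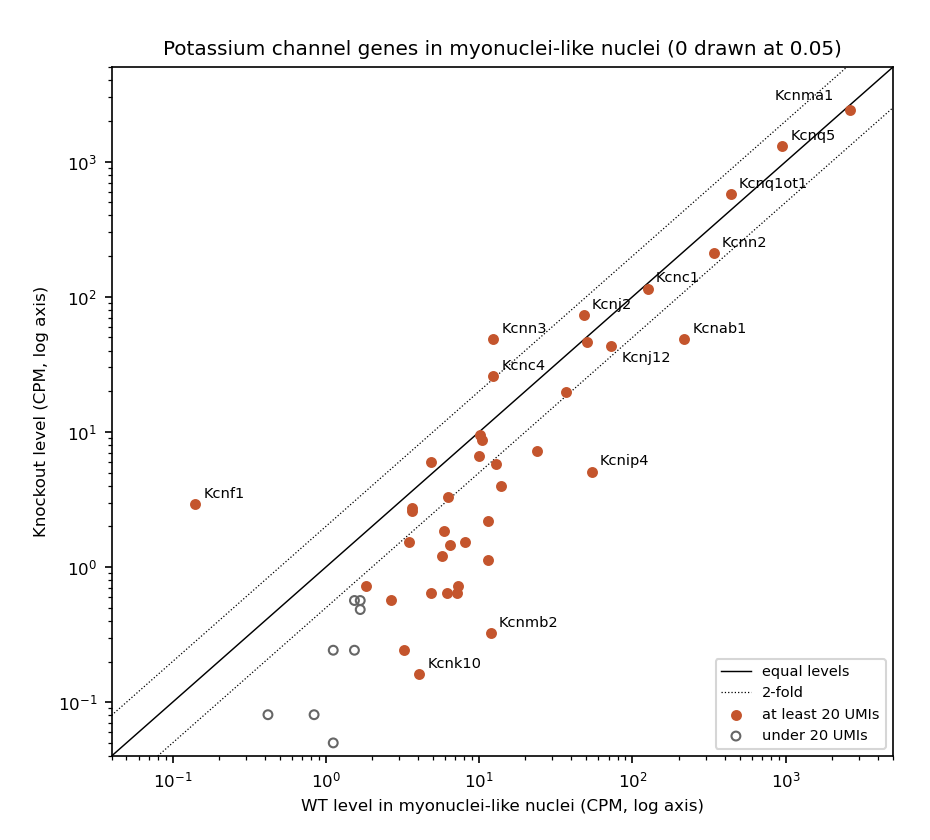
Level of 48 of the 52 potassium channel genes in muscle fibre nuclei, WT on the horizontal and knockout on the vertical log axis, in CPM of the class total; filled points are genes with at least 20 UMIs in both libraries together and open circles the others, 0 is drawn at 0.05, the solid line marks equal levels and the dotted lines 2-fold. Kcnma1, Kcnq5, Kcnq1ot1 and Kcnc1 lie near the line of equal levels, Kcnab1, Kcnip4 and Kcnmb2 lie below the lower dotted line, and Kcnn3, Kcnc4 and Kcnf1 lie above the upper one.

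Muscle fibre nuclei, 6971 in the WT and 5432 in the knockout library, were compared first, and comprised all clusters named as myonuclei-like, slow fibre, myotendinous or neuromuscular. Of the 52 genes, 44 had at least 20 UMIs there over both libraries together, so a gene could pass through 1 library alone. Of these, 22 were lower in the knockout library past 2-fold, where 21.3% of all 14690 features with as many UMIs were, 3 were higher, where 4.91% of features were, and 19 lay within 2-fold. The median log2 ratio of knockout over WT CPM was -1.01 for the potassium channel genes and -0.09 for all features. With nuclei of at least 500 genes 14 of 40 genes were lower (12.2% of features), with Y-marked nuclei of both libraries 13 of 34 (11.7%), and with nuclei thinned to 500 UMIs 15 of 34 were lower (13.9%) and 1 of 34 higher (5.84%). The other 8 genes had 12 or fewer UMIs in WT and 7 or fewer in knockout muscle fibre nuclei.

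Voltage-gated genes were divided: 11 of 22 were lower (21.3% of all features), 2 higher (4.91%) and 9 within 2-fold. The lowest ratios belonged to Kcng2, an electrically silent subunit, and to the ether-a-go-go genes Kcnh5, Kcnh8 and Kcnh1. Kcng2 had 23 WT and 3 knockout UMIs (3.21 and 0.243 CPM), a log2 ratio of -3.54. Kcnh5 had 51 and 8 UMIs (log2 -3.39, -4.75 to -2.38), Kcnh8 82 and 14 UMIs (-3.30, -4.27 to -2.51) and Kcnh1 52 and 9 UMIs (-3.26, -4.53 to -2.29). These are scarce transcripts in muscle fibre nuclei, at 11.5 CPM or less in either library. Over all WT nuclei Kcng2 was at 4.11, Kcnh5 at 8.73, Kcnh8 at 15.7 and Kcnh1 at 10.2 CPM. Each lay above its level in WT muscle fibre nuclei, so these WT levels were not particular to muscle fibres.

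A pair of abundant voltage-gated genes of muscle fibre nuclei lay within 2-fold. Kcnc1 was at 126 CPM in WT and 115 in the knockout (log2 -0.13, -0.25 to -0.01). By leading myosin gene, described below, Kcnc1 was at 69.9 and 71.6 CPM in Myh4-led nuclei. It was at 254 and 350 CPM in Myh1-led and 186 and 248 CPM in Myh2-led nuclei. Myh1- and Myh2-led nuclei numbered 754 and 493 in WT and 500 and 254 in the knockout library. The part of this fibre mix in the pooled ratio was not tested. Kcnq5 was at 949 and 1309 CPM, a higher level in the knockout library (0.46, 0.42 to 0.51) on the basis of 6793 and 16191 UMIs. Over the 17 alternatives this Kcnq5 ratio ran from 0.04, with a coarser clustering, to 1.21. The coarser clustering put 6417 WT and 585 knockout nuclei in an unnamed repeat-led cluster outside the muscle class. In nuclei of at least 500 genes the Kcnq5 ratio was 0.20. Y-marked nuclei were at 1105 CPM in WT and 1234 in the knockout, and Xist-marked knockout nuclei at 1796 CPM.

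A pair of voltage-gated genes was higher past 2-fold. Kcnc4, the Kv3.4 channel found in skeletal muscle, was at 12.3 CPM in WT and 25.9 in the knockout (log2 1.07, 0.73 to 1.43). Kcnf1, an electrically silent Kv5.1 subunit, had 1 WT and 36 knockout UMIs (0.140 and 2.91 CPM; log2 3.82, 1.81 to 9.72). Its size is therefore poorly fixed: with a single WT UMI the interval runs from 1.81 to 9.72. Within the knockout library, 27 of the Kcnf1 UMIs lay in Y-marked and 0 in Xist-marked nuclei (3.51 CPM, and between 0 and 3.32 CPM). Kcnip2, a Kv4 partner, had 49 and 1 UMIs in those nuclei (6.38 and 0.899 CPM).

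Among auxiliary genes, Kcnab1, a beta subunit that binds Kv1 channels and speeds their inactivation, was at 217 CPM (206 to 228) in the WT library, and 48.8 CPM (45.0 to 52.9) in knockout muscle fibre nuclei, a log2 ratio of -2.15 (-2.29 to -2.01). The WT UMIs were spread over 804 nuclei, the highest holding 30, and the knockout UMIs over 221 nuclei, the highest holding 27, so that no single nucleus set either level. Thinned to 500 UMIs, 8.41% of WT and 2.11% of knockout nuclei of the main muscle clusters had a Kcnab1 UMI, where 780 of 6689 and 216 of 5268 nuclei had one unthinned, at median depths of 748 and 1783 UMIs. The gap was also present inside single clusters: 229 CPM in WT and 34.5 in knockout nuclei of cluster 0, 466 and 102 in cluster 4, and 109 and 25.2 in cluster 5. Of these, clusters 0 and 4 came mostly from WT, and only cluster 5 was mixed, with 631 WT and 795 knockout nuclei. The knockout values of clusters 0, 4 and 5 rest on 11, 32 and 44 UMIs. In cluster 8, which has Myh1 among its 10 leading genes, both libraries were low, at 12.5 CPM from 4 UMIs and 12.8 CPM.

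Kcnip4, which binds Kv4 channels, had 388 WT and 63 knockout UMIs (54.2 and 5.09 CPM; log2 -3.40, -3.82 to -3.02). It spans 1135 kb and overlaps 24 annotated genes on its own strand, so its UMIs cannot be assigned with certainty. Over all WT nuclei Kcnip4 was at 68.7 CPM, above its level in WT muscle fibre nuclei. Kcnip1 was lower as well (-1.14, -1.61 to -0.68), whereas Kcnip2 (0.28, -0.31 to 0.92) and Kcnrg (-0.49, -1.28 to 0.32) lay within 2-fold. Of 5 auxiliary genes compared, 3 were lower (21.3% of all features) and 2 within 2-fold.

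Calcium-activated genes went both ways. The BK pore Kcnma1 was near level at 2618 CPM in WT and 2399 in the knockout (log2 -0.13, -0.15 to -0.10), while its beta subunit Kcnmb2 had 85 WT and 4 knockout UMIs (11.9 and 0.323 CPM; -5.04, -7.11 to -3.79), the lowest ratio of the set. The 85 WT UMIs of Kcnmb2 lay in 83 nuclei. Over all WT nuclei Kcnmb2 was at 16.2 CPM, so its WT level was not particular to muscle fibre nuclei. The SK channels differed among themselves. Kcnn2 was lower, at 339 and 211 CPM (-0.68, -0.76 to -0.60), Kcnn1 was at 6.28 and 3.31 CPM (-0.92, -1.57 to -0.28), and Kcnn3 was higher, at 12.3 CPM (9.86 to 15.1) and 48.8 CPM (45.0 to 52.9), a log2 ratio of 1.98 (1.67 to 2.33). Kcnn3 is the SK3 channel known from immature and denervated muscle. Its knockout UMIs lay in 396 nuclei, the highest holding 10. In the knockout library Kcnn3 was at 41.8 CPM in Y-marked and 81.9 CPM in Xist-marked nuclei, both above the 12.5 CPM of Y-marked WT nuclei.

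Among inward rectifiers, Kcnj2 was at 48.0 CPM in WT and 72.8 in the knockout (log2 0.60, 0.42 to 0.78) and Kcnj12, encoding the related Kir2.2, at 73.0 and 43.4 CPM (-0.75, -0.93 to -0.57). Kcnj11, the pore of the ATP-sensitive channel of muscle, was at 10.5 and 8.65 CPM (-0.28, -0.72 to 0.17). Kcnj6, a G protein-gated channel, was the 1 of 5 inward rectifiers lower past 2-fold (-2.37, -3.23 to -1.63), where 21.3% of all features were. All 3 two-pore genes compared were lower: Kcnk10 with 29 WT and 2 knockout UMIs (-4.35, -7.76 to -2.66), Kcnk2 with 44 and 8 (-3.18, -4.55 to -2.15) and Kcnk13 with 35 and 8 (-2.85, -4.24 to -1.78). Kcnq1ot1 was at 438 and 574 CPM (0.39, 0.33 to 0.45). Kcnq1, which lies on the opposite strand across the same interval, was at 5.73 and 1.21 CPM (-2.21, -3.20 to -1.36), and the sources used here do not say whether counting used strand, so the UMIs of both may be mixed.

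**Figure D2:**
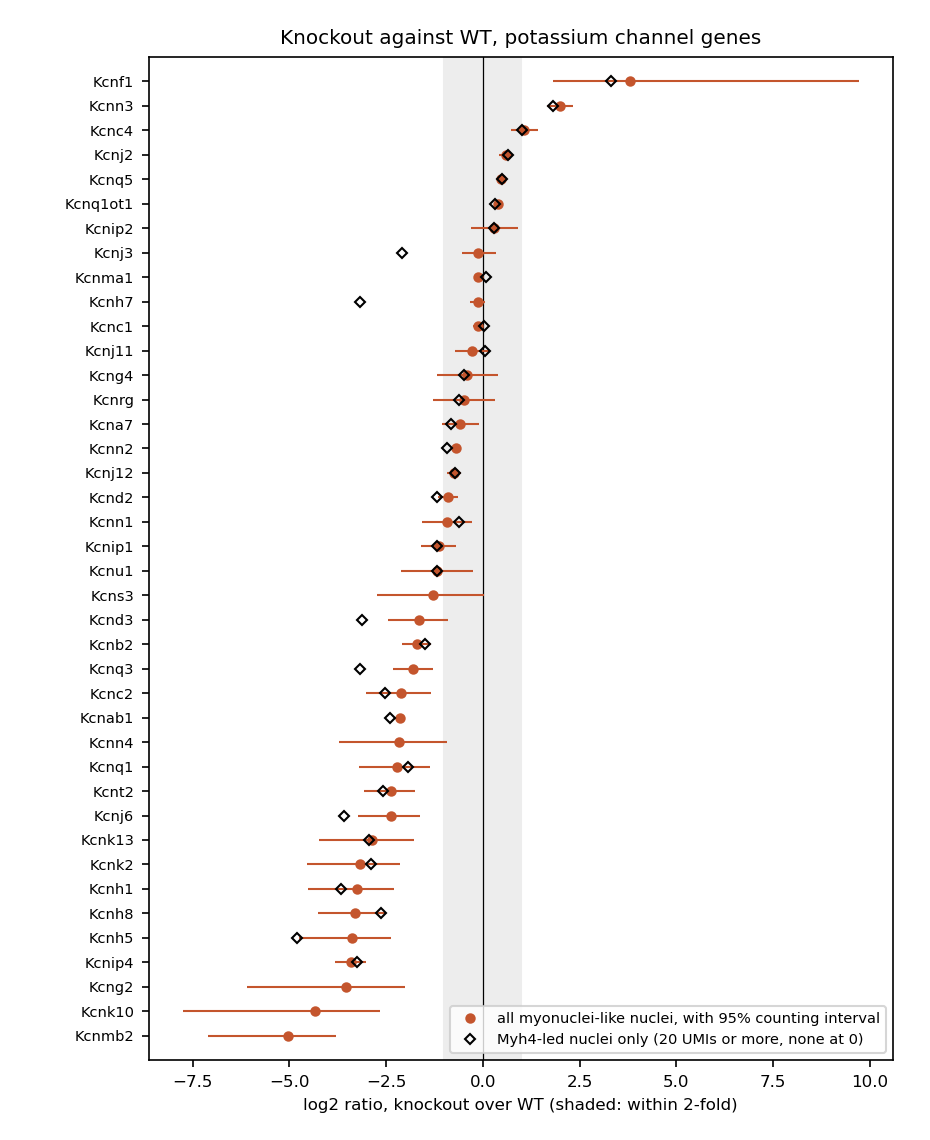
Log2 ratio of knockout over WT CPM for 40 of the 44 potassium channel genes with at least 20 UMIs in muscle fibre nuclei; filled points with bars are all such nuclei with the exact 95% counting interval, open diamonds the Myh4-led nuclei alone (genes with 20 UMIs or more there and none at 0), and the shaded band is within 2-fold. Diamonds and points lie close for Kcnab1, Kcnn3 and Kcnq5, and lie apart for Kcnh7 and Kcnj3, whose diamonds are at -3.19 and -2.09.

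Other genes of membrane excitability, 33 channel partners, pumps, sodium, chloride and calcium channel genes and ankyrins, were set beside them. Of the 25 with at least 20 UMIs, 4 were lower past 2-fold (21.3% of all features) and 0 higher (4.91%), with a median of -0.08. Their median gene length was 28.5 kb, against 152 kb for the 44 potassium channel genes. The part of length in the gap between the lists was not tested. Lower genes included Dpp10, a Kv4 partner (43.4 and 3.40 CPM; log2 -3.66), the BK partner Lrrc52 (-2.12) and Atp1b4 (-1.11). The muscle chloride channel Clcn1 was at 352 and 360 CPM (0.03, -0.04 to 0.10) and the calcium channel pore Cacna1s at 286 and 286 CPM (0.00, -0.08 to 0.08). Dpp6, the partner related to Dpp10, was at 81.4 and 55.5 CPM (-0.55), and Abcc9, the sulphonylurea receptor that pairs with ATP-sensitive channels, at 262 and 370 CPM (0.50).

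Gene length moved with the ratio. The 44 genes had a median length of 152 kb, against 29.6 kb for all features compared, and 24 of them lay in the longest of 5 equal groups of features (over 94.7 kb). In that group 47.2% of all features were lower past 2-fold, with a median of -0.75, and 17 of the 24 potassium channel genes were, with a median of -2.13. In the 3 shortest groups 8.90%, 8.52% and 14.3% of all features were lower, and 11.7%, 4.02% and 2.97% were higher. There 1 of 12 potassium channel genes was lower (Kcnn4) and 2 were higher, Kcnf1 in the shortest group and Kcnc4 in the third. The part of length in the ratios was not tested. With the median of its length group subtracted from each gene, 18 of 44 genes were past 2-fold lower (19.4% of features) and 4 of 44 higher (8.75%): Kcnab1 then stood at -1.40, Kcnmb2 at -4.29, Kcnq5 at 1.21, Kcnc4 at 1.15 and Kcnn3 at 2.73. Long genes of this set were not uniformly lower: Kcnma1 at 725 kb was near level, and Kcnq5 at 564 kb and Kcnn3 at 155 kb were higher. Kcnh7 at 491 kb was near level only over all muscle fibre nuclei, where 535 of its 573 knockout UMIs lay in myotendinous nuclei. In Myh4-led nuclei Kcnh7 was at 24.6 CPM in WT and 2.66 in the knockout.

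**Figure D3:**
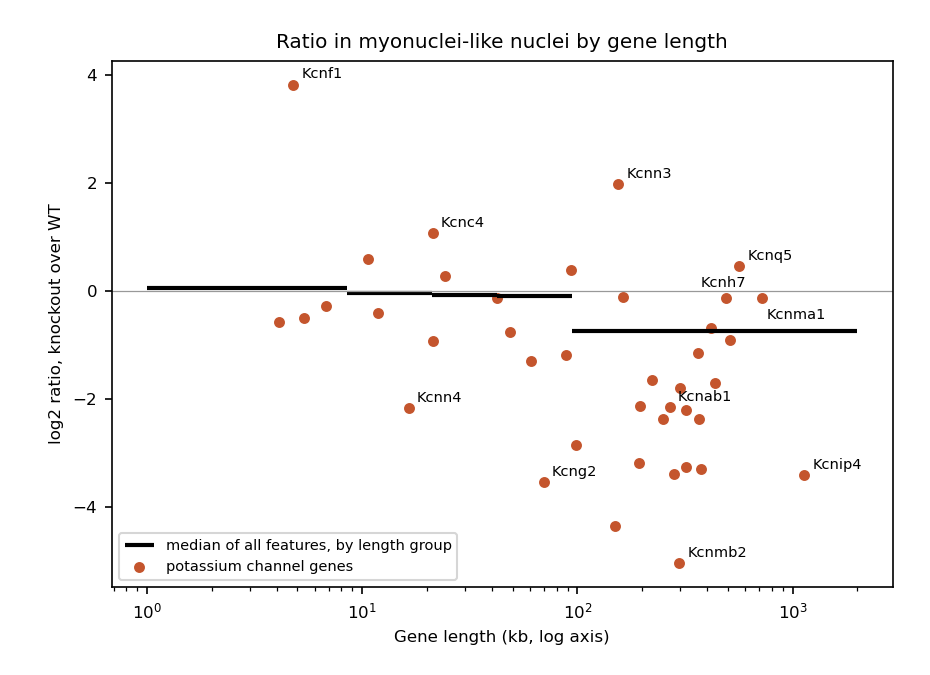
Log2 ratio of knockout over WT in muscle fibre nuclei against gene length (log axis, kb); points are 40 of the 44 potassium channel genes and black bars the median of all features in each of 5 length groups, the first and last bars shortened to the axis. The bar of the longest group is at -0.75 and 17 of the 24 points in it are at -1 or lower, while Kcnn3, Kcnq5, Kcnma1 and Kcnh7 lie above it.

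Fibre types were read from the leading myosin heavy chain gene of each nucleus: Myh4 marks type IIb, Myh1 type IIx, Myh2 type IIa and Myh7 slow type I fibres. Myh4 led in 3393 WT and 3862 knockout nuclei, Myh1 in 754 and 500, Myh2 in 493 and 254, and Myh7 in 11 and 33. Against Myh4-led nuclei of the same library, 7 of 23 potassium channel genes were higher past 2-fold in Myh2-led nuclei in both libraries (6.01% of all features were), and 2 were lower (5.1%). In Myh1-led nuclei 5 of 25 were higher (4.74%) and 1 lower (3.35%). Between Myh2-led and Myh1-led nuclei none of 13 passed in either direction (0.95% higher and 0.501% lower). Kcnj3, Kcnn3, Kcna7 and Kcnc1 were above Myh4-led nuclei in both types, Kcnb2, Kcnd2 and Kcnn1 passed for Myh2 and Kcnq5 for Myh1. Counting intervals included equal levels for Kcna7 in WT Myh2-led nuclei (log2 -0.05 to 2.05). They also did for Kcnn1 in knockout Myh2-led nuclei (-0.72 to 2.78, on 4 UMIs there) and Kcnj3 in WT Myh1-led nuclei (-0.08 to 2.45, on 10 UMIs there). The Kcnd2 call rests on few nuclei: its 41 UMIs in Myh2-led knockout nuclei lay in 7 of 254 nuclei, 20 of them in 1 nucleus.

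Kcnab1 was higher in type IIb nuclei than in types IIx and IIa. In WT it was at 313 CPM (295 to 331) in Myh4-led, 32.3 (22.2 to 45.4) in Myh1-led and 32.1 (20.4 to 48.2) in Myh2-led nuclei, and in the knockout library at 59.0 (54.2 to 64.1), 0.848 (1 UMI) and 4.96 (3 UMIs). It was lower in the knockout library in each of these types, by log2 -2.41, -4.69 and -2.51. Kcng4, an electrically silent Kv6.4 subunit, was at 4.45 and 3.20 CPM in Myh4-led nuclei on 17 and 30 UMIs, with 2 UMIs in Myh1-led nuclei of each library.

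Kcnc1 and Kcnn3 had the opposite order. Kcnc1 was at 69.9 CPM in Myh4-led, 254 in Myh1-led and 186 in Myh2-led WT nuclei, and at 71.6, 350 and 248 CPM in the knockout library, so that the order IIx, IIa, IIb held in both. Kcnn3 was at 6.54, 26.4 and 25.2 CPM in WT and at 23.5, 161 and 168 CPM in the knockout library, where the Myh1 and Myh2 levels did not separate (139 to 186 and 137 to 205). Its knockout level exceeded WT in each type, by log2 1.82 in Myh4-led, 2.58 in Myh1-led and 2.71 in Myh2-led nuclei. In the 33 Myh7-led knockout nuclei Kcnn3 was at 227 CPM (132 to 363) from 17 UMIs, and the 11 WT nuclei held 0 UMIs, which allows up to 380 CPM.

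Kcnq5 was highest in Myh1-led nuclei, at 1588 CPM against 1228 in Myh2-led and 780 in Myh4-led WT nuclei, and 2614, 1607 and 1095 CPM in the knockout library. Kcnn2 followed the same order in WT, at 590, 331 and 302 CPM, of which the Myh2 and Myh4 intervals overlapped (290 to 376 and 285 to 320). In the knockout library Kcnn2 was at 536, 320 and 158 CPM, with log2 ratios to WT of -0.14 (-0.30 to 0.02) in Myh1-led, -0.05 (-0.33 to 0.23) in Myh2-led and -0.94 (-1.05 to -0.82) in Myh4-led nuclei. The difference between types was not tested.

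Kcnma1 was highest in slow nuclei. In WT it was at 2231 CPM in Myh4-led, 2597 in Myh1-led, 4367 in Myh2-led and 13597 (11376 to 16124) in Myh7-led nuclei, and in the knockout library at 2351, 2276, 2962 and 5381 (4869 to 5933) CPM. The knockout to WT ratio was thus near level in Myh4-led nuclei (log2 0.08) and lower in Myh2-led (-0.56, -0.64 to -0.48) and Myh7-led nuclei (-1.34, -1.62 to -1.04). The WT Myh7-led level rests on 132 UMIs in 11 nuclei, the highest holding 26, and the interval does not cover differences between nuclei. Against Myh4-led nuclei, 4 of 20 genes were higher in Myh7-led nuclei (Kcnh7, Kcnn3, Kcna7 and Kcnma1; 25.1% of features) and 0 lower (1.8%), but only the Kcnma1 value rests on UMIs in both libraries. Kcnn3 and Kcna7 had 0 UMIs in the 11 WT nuclei, and Kcnh7 had 0 in Myh7-led nuclei of either library, so that those ratios come from the 0.5 UMI added to each sum.

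**Figure D4:**
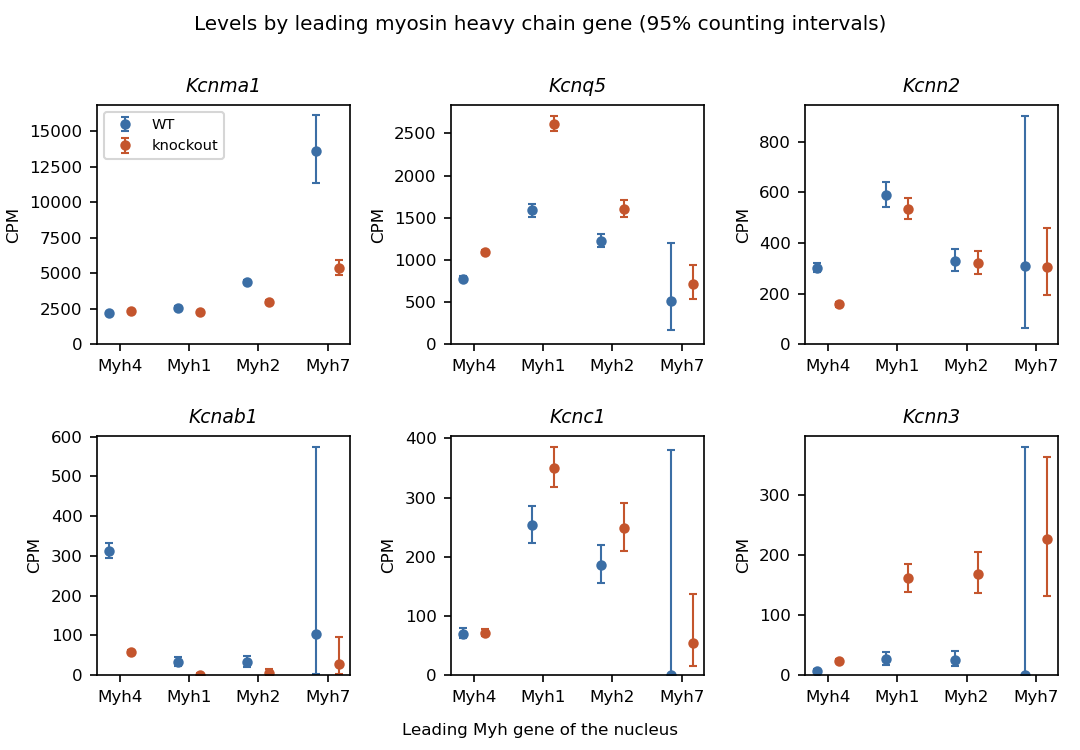
Level in CPM of 6 potassium channel genes by the leading myosin gene of the nucleus (Myh4, Myh1, Myh2, Myh7), WT in blue and knockout in orange, with exact 95% counting intervals; each panel has its own axis from 0. Kcnma1 is highest in Myh7-led nuclei, Kcnab1 in Myh4-led nuclei, and Kcnc1 and Kcnn3 are lower in Myh4-led than in Myh1-led or Myh2-led nuclei; the 11 WT Myh7-led nuclei held 0 UMIs of these last 2 genes.

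By genotype within fibre types, Myh4-led nuclei had 22 of 40 genes lower in the knockout library (15.6% of features) and 3 higher (5.35%), Myh1-led nuclei 3 of 18 lower (5.8%) and 2 higher (6.69%), and Myh2-led nuclei 4 of 17 lower (4.98%) and 1 higher (8.26%). In Myh7-led nuclei 1 of 4, Kcnma1, was lower (6.12%) and 0 higher (25.7%). Kcnab1 and Kcnip4 were lower and Kcnn3 was higher in each of Myh4-, Myh1- and Myh2-led nuclei.

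A cluster led by Nr4a3, a nuclear receptor induced by activity, held 631 WT and 795 knockout nuclei and carried Kcnn2 and Kcnq5 among its 10 leading genes although the clustering did not use them. Among Myh4-led nuclei, those of this cluster (390 WT and 611 knockout) had Kcnn2 at 681 CPM against 228 in the other Myh4-led nuclei in WT, and at 432 against 106 in the knockout library (log2 1.58, 1.40 to 1.75, and 2.03, 1.88 to 2.18). Kcnq5 was at 1580 against 623 CPM in WT and 2289 against 869 in the knockout (1.34 and 1.40). Kcnc1 was higher too (1.06 and 1.69), Kcnab1 lower (-1.69 and -1.23), and Kcnma1 level (0.02 and -0.07). These contrasts were chosen after the values were seen, apart from the genes' own selection.

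Myotendinous junction nuclei, which lie where the fibre meets tendon, numbered 125 in the WT and 86 in the knockout library. Kcnh7, Kcnq3, Kcnj3 and Kcnd2, 4 of 10 potassium channel genes with enough UMIs, were past 2-fold above all other nuclei in both libraries (8.35% of features). Kcnh7 encodes an ether-a-go-go related (Erg3) channel, Kcnj3 a G protein-gated inward rectifier, Kcnq3 an M-current subunit and Kcnd2 the Kv4.2 channel. The 250 bases before the RefSeq start of Kcnh7 (chr2:63184288-63184537, GRCm38.p6, minus strand) and of Kcnj3 (chr2:55435720-55435969, plus strand) are given because both genes lead this cluster, and that of Kcnq5 (chr1:21961943-21962192, minus strand) because it is high in synaptic nuclei, described after them. RefSeq gives a further Kcnq5 start, whose window (chr1:21962651-21962900, minus strand) is not printed; the one shown adjoins the gene start used here. Capitals mark E-boxes.
Kcnh7: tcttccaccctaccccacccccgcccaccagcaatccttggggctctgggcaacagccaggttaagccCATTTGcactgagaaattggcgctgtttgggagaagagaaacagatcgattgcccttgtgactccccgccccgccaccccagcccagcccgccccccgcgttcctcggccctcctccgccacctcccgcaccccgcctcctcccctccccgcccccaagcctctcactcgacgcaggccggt
Kcnj3: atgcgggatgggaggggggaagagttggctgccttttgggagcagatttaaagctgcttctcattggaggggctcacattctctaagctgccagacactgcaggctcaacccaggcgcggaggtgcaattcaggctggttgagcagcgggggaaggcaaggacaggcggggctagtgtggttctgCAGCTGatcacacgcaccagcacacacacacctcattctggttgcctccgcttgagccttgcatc
Kcnq5: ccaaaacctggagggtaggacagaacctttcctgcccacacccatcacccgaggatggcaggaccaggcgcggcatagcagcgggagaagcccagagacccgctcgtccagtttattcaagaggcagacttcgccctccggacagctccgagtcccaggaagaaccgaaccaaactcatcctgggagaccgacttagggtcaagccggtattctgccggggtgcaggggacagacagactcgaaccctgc
An E-box, CANNTG on either strand, occurred once in the Kcnh7 and once in the Kcnj3 window and not in that of Kcnq5, and 66.2% of 32851 such windows held one. The MEF2 site (3.20% of windows), the N-box core CCGGAA (12.0%) and the NBRE AAAGGTCA (1.34%), each searched on both strands, were not among the letters of these 3 windows. RefSeq windows were found for 40 of the 52 genes.

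Kcnh7 stood at 1422 CPM (1218 to 1651) in WT myotendinous nuclei, log2 5.38 above the other nuclei, and at 2505 CPM (2297 to 2726) in the knockout, log2 8.95 above. The 173 WT UMIs lay in 39 of 125 nuclei, 42 of them in 1 nucleus, and the 535 knockout UMIs in 31 of 86 nuclei, 76 of them in 1 nucleus. Kcnj3 was at 115 CPM (62.9 to 193) and 332 CPM (260 to 419), in 10 of 125 and 18 of 86 nuclei. Kcnq3 was at 214 and 140 CPM and Kcnd2 at 123 and 79.6 CPM. Kcnh7 was a junction gene within muscle: in nuclei of the other muscle clusters 2.71% of WT and 0.626% of knockout nuclei had a UMI of it, against 31.2% and 36.0% at the junction, and thinning to 500 UMIs gave 1.64% and 0.171% against 26.2% and 31.4%.

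For Kcnh7 and Kcnj3 the genotypes differed in opposite directions at the junction and in Myh4-led nuclei. Kcnh7 was higher in knockout myotendinous nuclei (log2 0.81, 0.57 to 1.07), short of 2-fold, and lower in knockout Myh4-led nuclei, at 24.6 and 2.66 CPM (-3.19, -3.91 to -2.56). Kcnj3 was higher at the junction (1.49, 0.69 to 2.47) and lower in Myh4-led nuclei, at 4.19 and 0.959 CPM (-2.09, -3.49 to -0.86), while its levels were alike in Myh1-led (9.79 and 9.33 CPM) and Myh2-led nuclei (19.6 and 19.8 CPM), on 14 UMIs or fewer each. Over all muscle fibre nuclei the ratios were -0.13 for Kcnh7 and -0.11 for Kcnj3. Kcnq3 (-0.61, -1.41 to 0.21) and Kcnd2 (-0.64, -1.72 to 0.47) had intervals at the junction that include equal levels. Of 13 genes compared at the junction 3 were lower (4.7% of features) and 1, Kcnj3, higher (14.3%). Kcnip4 was the lowest, with 31 UMIs in WT (255 CPM) and 0 in the knockout, followed by Kcnab1 (-1.77) and Kcnj12 (-1.50). The 31 Kcnip4 UMIs lay in 10 of 125 nuclei, 14 of them in 1 nucleus.

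Neuromuscular junction nuclei, which lie under the motor nerve ending, numbered 136 in the WT and 38 in the knockout library. Kcnq5 and Kcnj12, 2 of 4 genes, were past 2-fold above all other nuclei in both libraries (9.38% of features). Kcnq5 was at 2121 CPM (1854 to 2417) in the WT library, and 4788 CPM (4184 to 5454) in the knockout, from 226 UMIs in each library. They came from 61 and 29 nuclei, with 26 and 39 UMIs in the highest nucleus. Thinned to 500 UMIs, 40.4% of WT and 65.8% of knockout synaptic nuclei had a Kcnq5 UMI, against 27.5% and 34.3% of other muscle nuclei; unthinned, at median depths of 627 and 979 UMIs, the synaptic shares were 44.9% and 76.3%. Kcnj12 was at 178 and 212 CPM on 19 and 10 UMIs. Between genotypes, 1 of 4 genes was higher, Kcnq5 (log2 1.17, 0.90 to 1.45; 17.7% of features), and 0 lower (9.34%). This call did not hold in other clusterings. The class there held 39 to 42 WT and 33 knockout nuclei, Kcnq5 was at 4463 and 5149 CPM with a finer clustering (log2 0.21, -0.08 to 0.50), and it was at 4315 and 5149 CPM (0.25, -0.03 to 0.55) with at most 1% mitochondrial UMIs. The summed level of the 10 junction markers was 2253 CPM in WT and 6419 in the knockout class of the main clustering, and 5415 and 7005 CPM in the finer one.

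Slow fibre nuclei, 21 in WT and 40 in the knockout library, had Kcnn3 and Kcnma1 past 2-fold above other nuclei in the knockout library, the only one with enough nuclei (2 of 5 genes; 17.4% of features). Kcnma1 was at 10094 CPM in WT and 5218 in the knockout, and 16 of 17 and 36 of 40 nuclei thinned to 500 UMIs held it (21 of 21 and 39 of 40 unthinned), against 67.5% and 63.6% of other muscle nuclei. In the main muscle clusters 1 of 34 genes was above the other nuclei (0.814% of features): Kcna7, a muscle Kv1.7 channel, at 10.3 and 6.57 CPM.

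Outside muscle fibres, classes carried muscle RNA as well. Relative to the main muscle clusters, Ttn (titin, the giant muscle protein) stood at 66.4% in WT and 34.8% in knockout fibro-adipogenic nuclei, 54.9% and 51.5% in macrophage, 32.5% and 16.6% in adipocyte, and 68.8% and 34.5% in mural nuclei. Kcnma1 was at 55.8% and 39.8% of its muscle level in fibro-adipogenic nuclei, 42.0% and 49.6% in macrophage, 34.2% and 16.3% in adipocyte and 62.2% and 37.2% in mural nuclei. A level of an abundant muscle transcript in these classes is therefore not read as expression there. A class was described by genes past 2-fold above all other nuclei of the library. The genotype comparisons of these classes had no such filter and take in genes below their muscle level. How far this RNA entered the genotype ratios of these classes was not tested.

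Mural nuclei, the pericytes and smooth muscle of vessels, numbered 110 and 89. Kcnab1 was past 2-fold above all other nuclei in both libraries, 1 of 5 genes (17.6% of features). It was at 823 CPM (655 to 1022) in the WT library, and 734 CPM (587 to 906) in the knockout, so that the large gap of muscle fibre nuclei was not seen here (log2 -0.17, -0.62 to 0.29; the difference between classes was not tested). The 82 WT UMIs lay in 19 nuclei with 40 in 1 of them, and the 86 knockout UMIs in 13 nuclei with 23 in 1, so few nuclei set both levels. Kcnq5 was at 582 and 1723 CPM (1.56, 1.14 to 2.01). Its WT level there lay below the 949 CPM of WT muscle fibre nuclei. Of 6 genes compared, 1 was lower, Kcnn2 (5.13% of features), and 1 higher, Kcnq5 (17.1%).

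Fibro-adipogenic nuclei, the connective tissue progenitors, numbered 430 and 579. Kcnk5, Kcnt2, Kcnc2, Kcnb2, Kcnk2 and Kcnip4, 6 of 17 genes, stood past 2-fold above other nuclei in both libraries (19% of features). Kcnt2, a sodium-activated (Slick) channel, was at 135 CPM (100.0 to 178) in the WT library, and 396 (351 to 445) in the knockout, in 48 and 170 nuclei, a log2 ratio of 1.54 (1.12 to 2.02). Thinned to 500 UMIs, 7.89% and 18.8% of these nuclei had a Kcnt2 UMI (11.2% and 29.4% unthinned, at median depths of 631 and 895 UMIs), against 0.650% and 0.171% of muscle nuclei. Kcnc2, the Kv3.2 channel, was at 105 and 256 CPM (1.27, 0.78 to 1.82), and Kcnk5, the acid-sensitive TASK-2 channel, at 53.9 and 25.5 CPM (-1.08, -2.09 to -0.09). Of 21 genes 10 were lower in the knockout library (7.05% of features) and 2 higher (15.7%), namely Kcnt2 and Kcnc2. The lower genes included Kcnn2 (221 and 53.7 CPM) and Kcnj12 (72.8 and 18.4 CPM), both abundant in muscle, beside the lower Ttn share of the knockout class. The summed level of the 10 fibro-adipogenic markers was 1525 CPM in the WT and 3352 CPM in the knockout class, higher in the knockout as Kcnt2 and Kcnc2 were, and its part in their ratios was not tested.

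Adipocyte nuclei numbered 254 and 1078, and came from separate clusters: cluster 12 held 242 WT and 5 knockout nuclei and cluster 6 held 12 and 1073. In both libraries 2 of 11 genes were past 2-fold above other nuclei (23.2% of features), among them Kcnk3, the TASK-1 two-pore channel of fat cells. Kcnk3 was at 99.4 CPM (64.3 to 147) in the WT library, and 122 CPM (108 to 138) in the knockout (log2 0.27, -0.30 to 0.95). Of 19 genes 7 were lower (11.1% of features) and 3 higher (17.1%). The higher genes were Kcnc2, at 35.8 and 344 CPM from 9 and 700 UMIs (3.19, 2.33 to 4.40), Kcnk2, the TREK-1 channel, at 15.9 and 106 CPM from 4 and 215 UMIs (2.56, 1.35 to 4.62), and Kcnj15, at 31.8 and 108 CPM from 8 and 220 UMIs (1.68, 0.76 to 2.99). The 700 Kcnc2 UMIs lay in 218 nuclei, the highest holding 36. Kcnj15 and Kcns3 (35.8 and 71.7 CPM) were named after their values were seen. The summed level of the 11 adipocyte markers was 5558 CPM in the WT and 13926 CPM in the knockout class, so these ratios stand beside a class of unlike marker level.

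Macrophage nuclei numbered 127 and 218. Kcnk13, the two-pore channel THIK-1 of microglia and macrophages, was at 327 CPM (229 to 453) in the WT library, and 151 (113 to 197) in the knockout, and Kcnq1 at 118 and 42.6 CPM, 2 of 8 genes past 2-fold above other nuclei (22.2% of features). Thinned to 500 UMIs, 13.4% of WT and 7.80% of knockout macrophage nuclei had a Kcnk13 UMI, with overlapping intervals (7.33 to 21.8% and 4.61 to 12.2%; 21.3% and 16.5% unthinned, at median depths of 670 and 1010 UMIs), against 0.289% and 0.0759% of muscle nuclei. Of 12 genes 5 were lower in the knockout library (5.23% of features), Kcnk13 among them (log2 -1.13, -1.76 to -0.47), and 2 higher (13%), Kcnn3 on 2 and 25 UMIs and Kcnc1 on 3 and 22, both with intervals that include equal levels. The summed level of the 11 macrophage markers was 7707 CPM in the WT and 4973 CPM in the knockout class, lower in the knockout as Kcnk13 was, and its part in the ratios was not tested.

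The remaining classes were thin. Blood endothelial nuclei, 12 in WT and 83 in the knockout, had Kcnc2 at 781 CPM (612 to 982) in the knockout library, in 37 nuclei, 1 of 4 genes above other nuclei (34% of features). Lymphatic endothelial nuclei (33 and 168) had none of 3 genes above other nuclei in both libraries (21.4%), and 1 of 5 lower in the knockout, Kcnn2 (6.9%), with 0 higher (23.6%). Lymphocyte nuclei, 50 in the knockout library only, had 0 of 4 (23.3%). The cluster with satellite cell markers, 252 WT and 12 knockout nuclei, had Kcnn3 at 84.1 CPM (49.0 to 135) in WT, 1 of 10 genes (6.35%), and its Ttn stood at 104% of the muscle level. The unnamed repeat-led cluster had Kcnu1, Kcnh1, Kcnh8 and Kcnt2 above other WT nuclei, 4 of 34 genes (14.1%), at 11.9, 21.2, 29.2 and 41.1 CPM. Ttn in its WT nuclei stood at 114% of the muscle level.

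**Figure D5:**
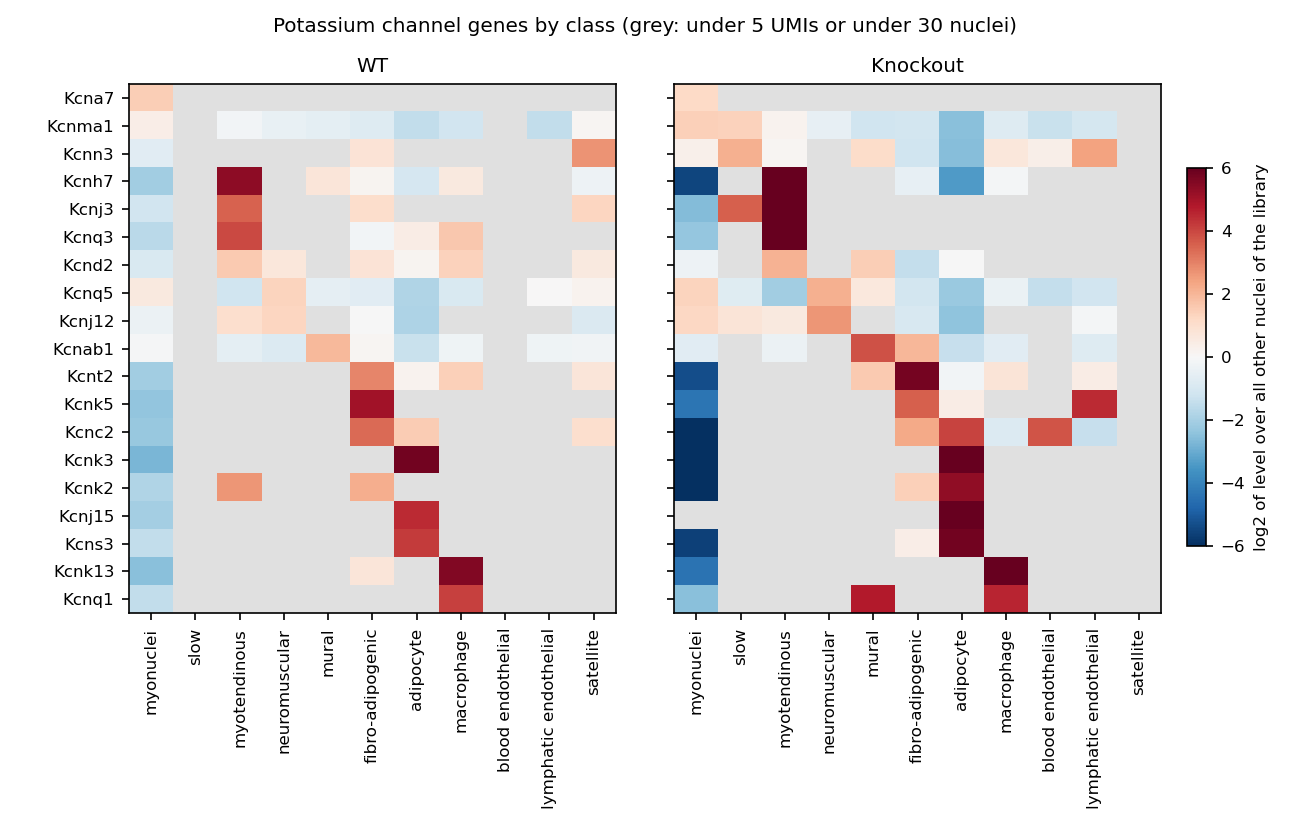
Log2 level of 19 potassium channel genes in each class over all other nuclei of the same library, WT at left and knockout at right; red is above, blue below, white level, colours end at 6 either way, and grey marks fewer than 5 UMIs or fewer than 30 nuclei. Kcnh7, Kcnj3 and Kcnq3 are red in the myotendinous column, Kcnab1 in the mural, Kcnt2 and Kcnk5 in the fibro-adipogenic, Kcnk3, Kcnj15 and Kcns3 in the adipocyte and Kcnk13 in the macrophage column of both panels.

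Over all nuclei without any classes, 21 of 52 genes were lower in the knockout library (21.1% of features) and 6 higher (8.51%). For Kcnc2 and Kcnk2 this pooled value had the opposite sign to that of muscle fibre nuclei, at 2.17 and 0.80 against -2.12 and -3.18. The rule for named genes left out 17 genes, and those of them given above by value were chosen after their values were seen. These genes (among them Kcna2, Kcnab2, Kcnb2, Kcnd3, Kcnh4, Kcnip1, Kcnip3, Kcnj6, Kcnj11, Kcnj15, Kcnmb4, Kcnn1, Kcnn4, Kcnrg, Kcns3 and Kcnu1) had between 7 and 286 UMIs in WT and between 10 and 227 in the knockout library over all nuclei.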

How the data were processed

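The deposited matrices, 1 per library, hold raw UMI counts for each gene in each nucleus, deposited as the authors' output; per the file headers, the counting tool was Cell Ranger 6.0.0. STAR, Seurat 4.1.1 and the mouse build mm10 also appear in the submitters' processing notes. Neither the use of introns nor that of strand in counting is stated there. A nucleus was kept if it had 200 genes or more and no more than 5% of its UMIs from mitochondrial genes. Both libraries were clustered together in scanpy 1.11.5 without potassium channel genes (2000 variable genes less 15 of these, 30 components, 15 neighbours, Leiden resolution 1). Clusters were named from marker lists, with score thresholds chosen once the values had been seen. A doublet caller marked 0 nuclei in either library, which means that it did not work, and doublets were left in.

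UMIs were summed per library and class and given as CPM. Ratios are log2 of knockout over WT with 0.5 UMI added to each sum, with exact conditional binomial intervals. Levels have exact Poisson and shares exact Clopper-Pearson intervals. A gene was called past 2-fold with at least 20 UMIs over both libraries. Within a class it was called against all other nuclei of the library with at least 10 UMIs in each library that held 30 or more nuclei. The leading myosin gene needed 2 UMIs and a strict lead, outside junction clusters. Gene lengths and coordinates come from GENCODE M21 (GRCm38), which held all 95 symbols by identifier. The interval arithmetic was tested on simulated Poisson sums, so the test does not cover UMIs that clump in few nuclei. Its pass criterion was replaced by a looser one after a failure was seen.

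Genes given in full were the 12 with most UMIs, the 8 highest and 8 lowest ratios in muscle fibre nuclei, and up to 3 per class and fibre type. The members and lists were chosen with earlier results of these data known. Alternatives varied the count minimum, filters, clustering, thinning, totals, gene length and sex-marked nuclei. Values of some genes are not reported here, and the counts of genes include them.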

Additional observations from a re-analysis of the deposited data

Results flagged for a closer look

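In 5 genes the knockout to WT ratio passed 2-fold in opposite directions in different classes. Each class has 1 library per genotype, and the difference between classes was not tested. Kcnc2 had a log2 ratio of 3.19 in adipocyte nuclei, which came from different clusters in the libraries, and -2.52 in Myh4-led nuclei. Kcnk2 had 2.56 in adipocyte nuclei, on 4 WT UMIs, and -3.18 in muscle fibre nuclei. Kcnt2 had 1.54 in fibro-adipogenic and -2.58 in Myh4-led nuclei. Kcnj3 had 1.49 in myotendinous junction and -2.09 in Myh4-led nuclei, on 16 and 9 UMIs in the latter. Kcnc1 had 1.01 in macrophage nuclei, on 3 WT and 22 knockout UMIs with an interval that includes equal levels, and -1.39 in fibro-adipogenic nuclei. Its levels were 27.3 and 62.5 CPM in macrophage and 78.1 and 29.7 CPM in fibro-adipogenic nuclei. They lay below the 126 and 115 CPM of muscle fibre nuclei. The part of the muscle RNA that these classes carried was not tested.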

How the results depend on the processing

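No paired analysis was possible because each genotype has 1 library and the labels give no replicate numbers, so no library could be left out either. The 22 potassium channel genes lower in knockout muscle fibre nuclei became 14 with nuclei of at least 500 genes, 13 with Y-marked nuclei and 7 of 26 with Xist-marked knockout against Y-marked WT nuclei (10.3% of features). The 3 higher genes became 1 in thinned nuclei and 6 over all nuclei. The median of -1.01 became -1.30 with a minimum of 5 UMIs, -0.66 in thinned nuclei, -1.37 with the repeat-led cluster included, -0.65 over all nuclei, -0.55 in Y-marked nuclei and -0.42 with Xist-marked knockout nuclei. The excitability list's median became -0.34 with a minimum of 5 UMIs. The 9 of 23 genes past 2-fold between Myh2-led and Myh4-led nuclei (6.01% of features higher and 5.1% lower) became 3 in thinned and 4 in Y-marked nuclei. The 19 different genes past 2-fold above the other nuclei in at least 1 named class, the main muscle clusters left out, became 11 with 20 UMIs, 12 at 3-fold and 12 in thinned nuclei. In the main setting the share of all features ran from 6.35% to 34% by class. The shares under the altered settings of the fibre type and class counts are not given here, so those counts are not read against background. Over all nuclei Kcnc2 (2.17) and Kcnk2 (0.80) changed sign. The thinned, sex-marked and 500-gene settings leave fewer UMIs or genes to compare, and the cause of the other changes was not tested. Kcnab1 (-2.41 to -1.004, the latter just past 2-fold, at Leiden resolution 0.5) and Kcnn3 (1.16 to 2.73) were past 2-fold in the same direction under all 17 alternatives run, and Kcnc4 from 0.77 to 1.52, past 2-fold in 14 of 17. At resolution 0.5 the repeat-led cluster, left outside the muscle class, held 6417 WT and 585 knockout nuclei. The muscle class compared at that resolution was therefore another set of nuclei. Of the alternatives chosen after seeing the data, Myh4-led nuclei alone gave 22 lower and 3 higher, and leaving out cluster 0, which has the neuronal gene Syt1 among its 10 leading genes, gave 20 of 43 lower (17.7% of features) and 3 higher (5.17%). The neuromuscular Kcnq5 ratio of 1.17 became 0.21 to 0.25 in 3 other clusterings, also tried after seeing the data, whose WT classes were smaller. Genes under 20 UMIs in a class could not be compared at this depth.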
